A study of Bos taurus with 34 samples.

Results

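Liver RNA of Senepol cattle was sequenced in 2 experiments, and all libraries of one experiment were set against all libraries of the other. The comparison takes in 34 of the 34 liver samples of the series: 18 from the TruSeq experiment and 16 from the SMARTer experiment. In the TruSeq experiment the animals were sired by Blanco or by Lone Ranger, both slick bulls. Of these 18, 10 were labelled SLICK, with 1 copy of the SLICK allele of PRLR, the prolactin receptor gene (5 of sire BLANCO and 5 of sire RANGER), and 8 were labelled FREE, with 0 copies (1 of BLANCO and 7 of RANGER). In the SMARTer experiment 5 animals were labelled S1, with 1 copy, and 11 were labelled S2, with 2 copies, and no sire is given. No column of either count table could be tied to a genotype, so the libraries are numbered in column order and genotype enters no result. The library kit, the animals, their genotypes, the time of the work and the way reads were counted differ together between the experiments and cannot be told apart. Every difference given here is therefore one between experiments.

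Liver is built mainly of hepatocytes, which make the proteins of blood plasma, the urea cycle enzymes and much of the body's cholesterol and fatty acids. Macrophages called Kupffer cells, endothelial cells, stellate cells and bile duct cells make up most of the rest. As background on the kits, the TruSeq stranded mRNA preparation picks out RNA with a poly(A) tail, whereas the SMARTer total RNA preparation starts from random priming of all RNA and then removes part of the ribosomal sequences. RNAs without such a tail, among them most short structural RNAs and the histone messages of dividing cells, are known to be recovered unequally by protocols of these kinds. In bulk RNA, fewer cells of a type cannot be told apart from less RNA per cell.

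Of the 16 SMARTer libraries, libraries 6 and 12 did not carry a liver profile. Their median rank correlation of log2 CPM (counts per 1000000 counts on genes) with the other SMARTer libraries was 0.737 and 0.715, against a median of 0.979 over the experiment, and with each other it was 0.728. ALB, which encodes serum albumin, stood at 25028 to 32421 CPM in the other 14 SMARTer libraries, at 0.666 CPM in library 6 and at 1257 CPM in library 12. The summed level of 17 hepatocyte markers was 69689 to 91034 CPM in the 14, 30406 in library 6 and 3214 in library 12. The labels call all 34 samples liver, so both libraries went against their label by these markers.

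Many of the genes that were high in library 6 are known from the lining of the small intestine. FABP2, the intestinal fatty acid binding protein, had 1959 CPM in library 6 and at most 0.0251 CPM in the other 14. KRT20, a keratin of gut epithelium, had 1359 CPM, and VIL1, the microvillus protein villin, had 1005 CPM in that library. A list of 17 intestinal epithelium genes, chosen after these values were seen, summed to 10194 CPM in library 6 and to 106 to 206 CPM in the 14. In the 14 libraries most of that sum was MGAM, a starch-digesting enzyme, with 98.7 CPM at the lowest and 137 CPM at the median, and MGAM was lower in library 6, at 32.6 CPM. Of the 17 genes, 16 stood above all 14 libraries in library 6, which follows from how the list was chosen and is no test. Apolipoprotein genes that both organs use were among its most abundant genes, with APOA4 at 18475 CPM, APOB at 13893 CPM and APOA1 at 12876 CPM, and APOB and APOA1 are 2 of the 17 hepatocyte markers. The immunoglobulin joining chain JCHAIN stood at 2178 CPM in library 6, beside 9.59 to 30.0 CPM in the 14.

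Library 12 was rich in genes of blood cells. CSF3R, the granulocyte colony stimulating factor receptor of neutrophils, had 975 CPM there and 1.99 to 7.69 CPM in the 14. S100A12, a calcium binding protein of neutrophils, had 442 CPM, TUBB1, the platelet tubulin, had 658 CPM, and HBB, the beta chain of haemoglobin, had 147 CPM. Summed over 9 neutrophil markers, the level was 1716 CPM in library 12 and 13.6 to 34.5 CPM in the 14. CPS1, the first enzyme of the urea cycle, had 44.1 CPM in library 12 and 2721 to 3510.3 CPM in the 14. Of 7772 genes with a median of at least 10 CPM in the 14 libraries, 563 were more than 10-fold below that median in library 6 and 1127 in library 12. Results that these 2 libraries changed most are given with and without them, a choice made after the values were seen.

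**Figure D1:**
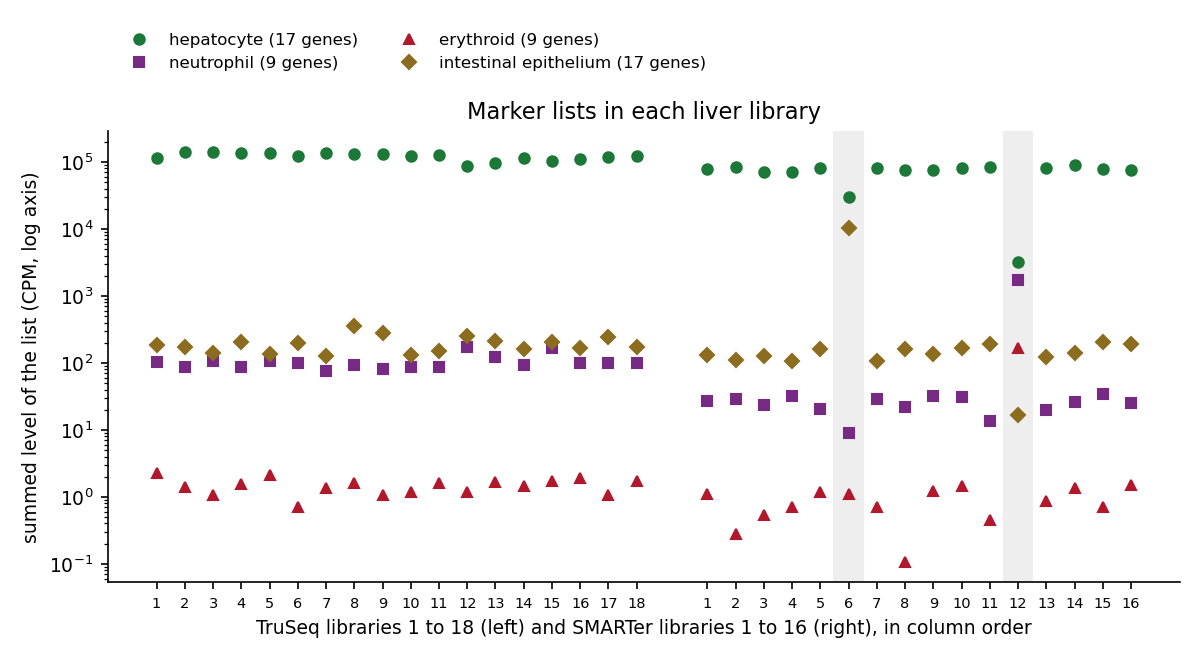
Summed CPM of 4 marker lists (vertical axis, log scale) in each of the 18 TruSeq and 16 SMARTer libraries (horizontal axis, in column order), 1 point per list and library; the grey bands mark SMARTer libraries 6 and 12. In library 6 the intestinal list reached 10194 CPM, and in library 12 the hepatocyte list stood at 3214 CPM while the neutrophil list stood at 1716 CPM.

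The tables hold the same 27607 genes, of which 19814 carry a symbol. TruSeq libraries were deeper, with 93024441 to 154949152 counts on genes against 63795299 to 96098600 in SMARTer. Genes with at least 1 CPM numbered 12546 to 13123 per TruSeq library and 13089 to 14088 per SMARTer library. The mean difference of 515 genes had p = 2e-05 in a two-sided permutation test with 100000 resamples, the smallest p these can give, and was 461 genes without libraries 6 and 12. At a bar of 10 CPM the difference was -19.4 genes and did not pass the test (p = 0.83). Libraries of one experiment ranked genes almost alike, with a median Spearman correlation of 0.988 over pairs within TruSeq and 0.980 within the 14 SMARTer libraries, while pairs across experiments had a median of 0.869. The rule that marked libraries 6 and 12 also marked TruSeq libraries 4, 12, 15 and 16, whose median correlations were 0.982 to 0.986.

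Short structural RNAs took a far larger share of counts in SMARTer. They are the RNA parts of ribosomes, the spliceosome and other particles. In 8 such classes together, 2060 annotated genes took 0.00856% ± 0.00132 of all counts in TruSeq (SD, n = 18) and 7.75% ± 1.23 in SMARTer (SD, n = 16), a ratio of 906. Genes annotated Metazoa_SRP, the RNA of the signal recognition particle that guides secreted proteins to the endoplasmic reticulum, took 3.56e-05 to 1.40e-04% in TruSeq and 3.03 to 4.57% in SMARTer. Genes annotated 5_8S_rRNA, a small RNA of the large ribosomal subunit, took 3.66e-04 to 0.00290% in TruSeq and 1.61 to 4.06% in SMARTer. No library of one experiment overlapped the other in any of these classes, and libraries 6 and 12 lay above the TruSeq range too.

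The smaller classes were higher in SMARTer as well. 7SK, the RNA that holds the elongation factor P-TEFb inactive, took a mean of 5.27e-04% in TruSeq and 0.435% in SMARTer. RNase P and RNase MRP, which cut the precursors of transfer RNA and ribosomal RNA, took 1.84e-05% and 0.263%. Small nucleolar RNAs, which guide the modification of ribosomal RNA, differed least of the 8 classes, with 0.00588% against 0.173%, a ratio of 29.5. Many of these genes exist in near-identical copies, so the level of a single copy is uncertain. As an example, Metazoa_SRP ENSBTAG00000050180 at chr10:42834493-42834792 (ARS-UCD1.2), had 0 counts in all 18 TruSeq libraries and 8637, 10417 and 13417 CPM at the lowest, median and highest of the 14 SMARTer libraries. In TruSeq 3 counts over the 18 libraries would be 0.00139 CPM.

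Genes under 300 bases of exon as a whole took 0.0830 to 0.139% of counts in TruSeq and 4.71 to 9.14% in SMARTer, without overlap. This was 1 of 7 shares tested with two-sided permutation tests, and each of the 7 gave p = 2e-05 and an adjusted p = 2e-05, the smallest that 100000 resamples can give; the same held without libraries 6 and 12. Genes named bta-mir, annotated as hairpin precursors of microRNAs, took 0.00802% in TruSeq and 0.631% in SMARTer. Most of the latter came from 1 copy of bta-mir-2887-2, ENSBTAG00000054661. This locus at chr2:121575106-121575160 had 4536, 5751 and 8740.0 CPM in the 14 SMARTer libraries and 0, 0 and 0.0525 CPM in TruSeq. Another copy, at chr27:6217555-6217609, lay on the same strand as the 5_8S_rRNA gene at chr27:6222648-6222800. Whether counts at the bta-mir-2887-2 copies come from microRNA precursors was not tested. The hairpin of bta-mir-122, the microRNA best known from hepatocytes, went the other way, with a median of 22.4 CPM in TruSeq and 6.02 CPM in the 14 SMARTer libraries. It stood at 0 CPM in library 6 and at 0.0144 CPM in library 12.

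**Figure D2:**
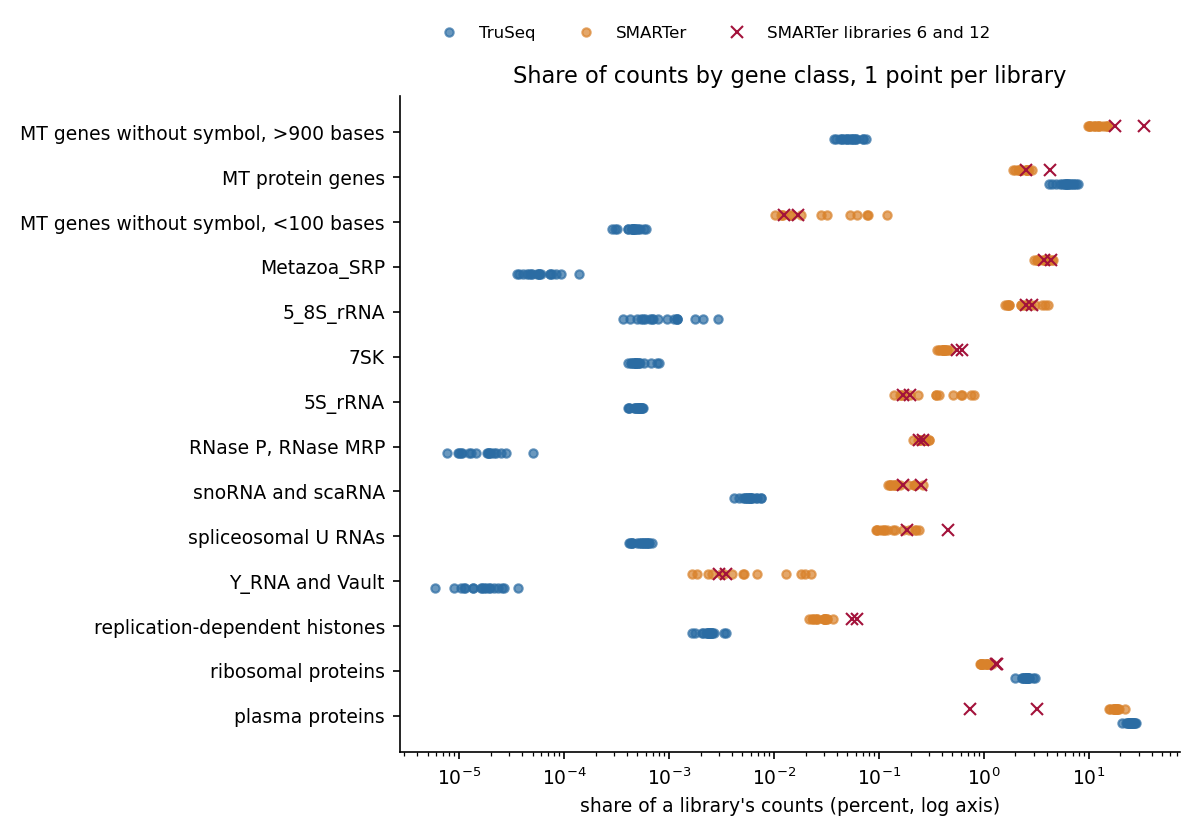
Share of each library's counts (horizontal axis, percent, log scale) taken by 14 gene classes, with 1 blue point per TruSeq library, 1 orange point per SMARTer library and crosses for SMARTer libraries 6 and 12. The short structural RNA classes lie to the right in SMARTer by factors of 29.5 or more, while mitochondrial protein genes, ribosomal proteins and plasma proteins lie to the left of TruSeq or beside it.

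The mitochondrial chromosome split into parts that moved in opposite directions. Its 37 genes together took 4.20 to 7.90% of counts in TruSeq and 12.3 to 17.7% in the 14 SMARTer libraries, with 38.1% in library 12. Most of the SMARTer share came from 2 genes without a symbol, of 955 and 1571 bases, at MT:431-1385 and MT:1453-3023. These 2 took 0.0376 to 0.0754% in TruSeq and 9.78 to 15.2% in the 14. The 13 protein genes of the chromosome, which encode subunits of the respiratory chain, took 6.13% ± 1.00 in TruSeq and 2.48% ± 0.548 in SMARTer. COX1, the catalytic subunit of cytochrome oxidase, had 19263, 28989 and 34215 CPM in TruSeq and 6178, 8583 and 10902 CPM in the 14 SMARTer libraries.

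Not all of the 13 protein genes moved alike. In the edgeR quasi-likelihood test 10 of the 13 were higher in TruSeq and 2 were higher in SMARTer, with a median log2 difference of -1.11. ND3 differed most in the first direction, by -2.56 ± 0.16 (SE) on the log2 scale. ND6, the one protein gene on the light strand, had 12.4, 18.5 and 46.0 CPM in TruSeq and 126, 167 and 193 CPM in SMARTer, a log2 difference of 2.91 ± 0.18 (adjusted p = 6.2e-17). ATP8, a small subunit of ATP synthase whose gene overlaps ATP6, was higher in SMARTer by 2.08. Both stood above their whole TruSeq range in every one of the 14 libraries, and libraries 6 and 12 had 141 and 347 CPM of ND6.

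Per kilobase of exon, ALB was the most abundant gene of the TruSeq libraries with 28702 ± 5294 CPM per kilobase (SD, n = 18), followed by COX1 with 18354 ± 2621 and APOA2, an apolipoprotein of high density lipoprotein, with 9893 ± 1517. Among genes of at least 300 bases, the 14 SMARTer libraries were led by the 2 long mitochondrial genes without symbol, Metazoa_SRP and ALB, with ALB at 13899.6 ± 1291 (SD, n = 14). FGB, the beta chain of fibrinogen, came to 5462 ± 925 in TruSeq and 7118 ± 2086 in SMARTer on the same scale. By CPM, 7 of the 15 most abundant genes of each experiment were shared when all libraries were used. Of the 100 most abundant, 69 were shared, and 71 without libraries 6 and 12. The 10 most abundant genes took 19.98% ± 1.27 of counts in TruSeq and 29.7% ± 4.54 in SMARTer, and the 100 most abundant took 44.9% ± 1.89 and 50.3% ± 2.11. Counted over nuclear chromosomes alone, the share of the 100 most abundant differed by -0.954 percentage points, which did not pass the permutation test (p = 0.45). KIF12 appeared among the 15 most abundant TruSeq genes. Whether it shares reads with an adjoining gene model was not tested, so its level is uncertain.

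Gene by gene, most of the measured transcriptome differed between the experiments. Of 16562 genes tested with edgeR's quasi-likelihood test and Benjamini-Hochberg adjustment, 6635 (40.1%) were higher in SMARTer and 5886 (35.5%) were higher in TruSeq. The values of the 2 experiments did not overlap in 4439 genes (26.8%). Differences of at least 2-fold that passed the test numbered 4265 (25.8%) in SMARTer's favour and 2831 (17.1%) in TruSeq's. Without libraries 6 and 12, 6942 of 16755 genes (41.4%) were higher in SMARTer, 7037 (42%) were higher in TruSeq and 6626 (39.5%) did not overlap. The median log2 difference over all genes was 0.07, and -0.02 without the 2 libraries. These shares are the background for every count below. The p-values set each difference against the spread between libraries of the same experiment. TruSeq animals of one sire, BLANCO or RANGER, are related to each other, and no sire is given for SMARTer. The fit treats all libraries as independent.

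**Figure D3:**
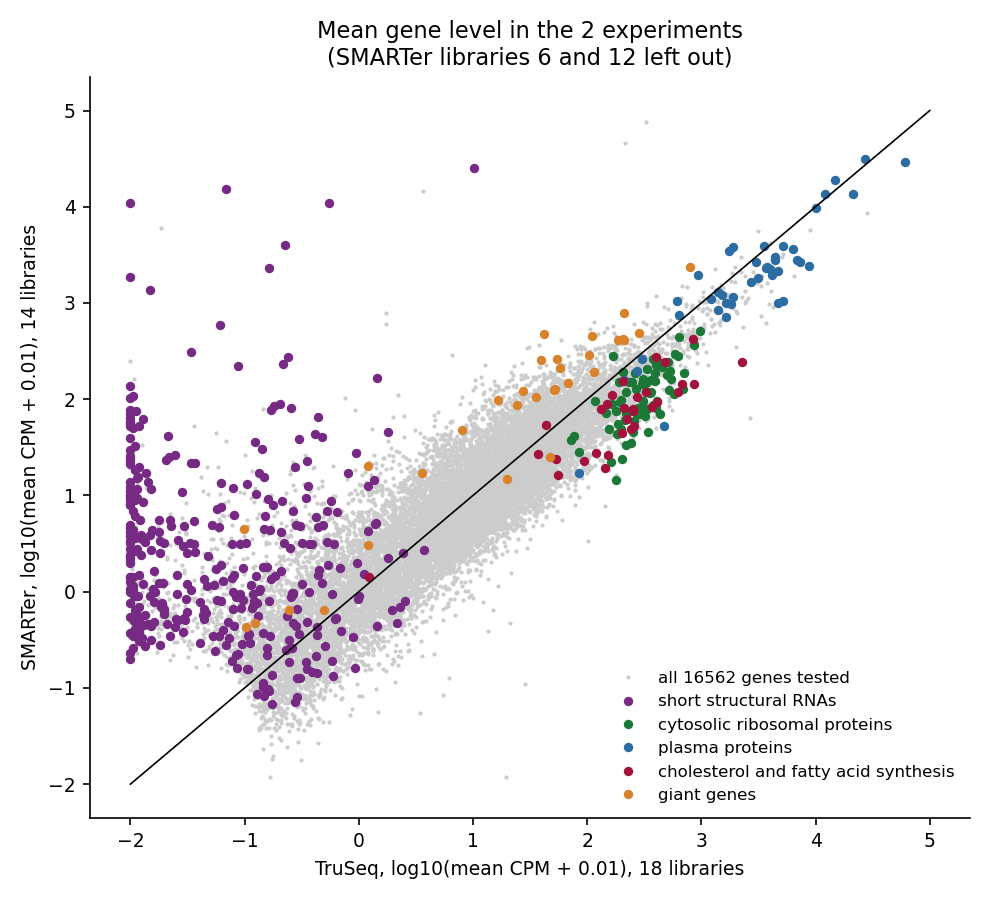
Mean level of each of 16562 genes in TruSeq (horizontal axis, log10 of mean CPM + 0.01, 18 libraries) and in SMARTer (vertical axis, the same scale, 14 libraries), 1 point per gene, with 5 gene groups coloured and the line of equal level drawn. Short structural RNAs pile up at the left edge, most ribosomal protein and lipid synthesis genes lie below the line, and giant genes lie mostly above it.

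Among genes with a symbol, the 12 largest differences in favour of SMARTer were all short multi-copy RNAs (Metazoa_SRP, 5S_rRNA and bta-mir-2887-2). Among genes of more than 1 exon, a limit added after the values were seen, ZBTB20 led, a zinc finger repressor that silences alpha-fetoprotein in adult liver. ZBTB20 had 0.305, 0.733 and 1.43 CPM in TruSeq and 93.2, 99.3 and 123 CPM in the 14 SMARTer libraries, a log2 difference of 6.95 ± 0.24 (adjusted p = 9.6e-24). HIPK2, a nuclear serine/threonine kinase, had 4.78, 6.52 and 8.49 CPM against 236, 275 and 361 CPM. LPP, a focal adhesion protein, differed by 4.74, HERC1, a giant ubiquitin ligase, by 4.54, and ZEB2, a repressor that Kupffer cells use to keep their identity, by 4.26. None of these 5 overlapped between the experiments. Their values in libraries 6 and 12 lay above the TruSeq range too, for ZBTB20 at 15.1 and 25.6 CPM. Lack of overlap was a condition of the rule for naming the largest differences, so it is no separate result.

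In favour of TruSeq, THRSP differed most, a thyroid hormone responsive protein of lipogenic tissues. THRSP had 6.63, 16.9 and 53.6 CPM in TruSeq and 0.0224, 0.266 and 1.39 CPM in the 14 SMARTer libraries, a log2 difference of -5.63 ± 0.47 (adjusted p = 5.2e-13). GPNMB, a glycoprotein of lipid-loaded macrophages, had 9.72, 51.2 and 474 CPM in TruSeq and 0.610, 2.78 and 8.89 CPM in SMARTer. Genes of fatty acid desaturation stood beside them: FADS2 had 539, 2353 and 3929.8 CPM against 8.48, 217 and 439 CPM, and FADS1 differed by -3.05. ACSS2, which makes acetyl-CoA from acetate, differed by -3.30. FETUB, a secreted protease inhibitor of hepatocytes, differed by -3.31 and SERPINA6, the corticosteroid binding globulin, by -3.30. All of these were lower in every SMARTer library than in any TruSeq library. The rule for naming the largest differences asked for values that do not overlap, so this is no separate result.

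Cytosolic ribosomal proteins were lower in SMARTer almost without exception. Their 77 genes together took 1.97 to 3.10% of counts in TruSeq and 0.927 to 1.34% in SMARTer, without overlap (p = 2e-05, permutation test). Of 76 tested, 74 were higher in TruSeq and 1 was higher in SMARTer, with a median log2 difference of -1.46. RPL39 had 147, 180.5 and 207 CPM in TruSeq and 9.93, 14.5 and 18.3 CPM in the 14 SMARTer libraries. RPLP2, a stalk protein of the large subunit, was the exception, at 111, 166 and 257 CPM against 235, 279 and 325 CPM. Libraries 6 and 12 had 20.1 and 23.6 CPM of RPL39, and leaving both out changed the median to -1.41.

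Nuclear genes of the respiratory chain behaved likewise. Of 73, 67 were higher in TruSeq and 1 was higher in SMARTer, with a median of -1.22. NDUFA4, a small subunit of cytochrome oxidase, had 117, 139 and 157 CPM against 17.2, 23.3 and 35.6 CPM. COX7A2 differed most, by -2.70 ± 0.11, and NDUFS6 of complex I was the one that was higher in SMARTer, by 0.97. Without libraries 6 and 12 4 of the list were higher in SMARTer and 67 in TruSeq. The median exon length of the ribosomal list was 840 bases, and that of the respiratory list was 1095 bases.

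Genes of cholesterol and fatty acid synthesis were lower in SMARTer as a group. Of 31 tested, 28 were higher in TruSeq and 0 higher in SMARTer, with a median of -1.78, and 15 did not overlap. Without libraries 6 and 12, 29 were higher in TruSeq and 1 in SMARTer. HMGCS1, the cytosolic synthase that feeds the mevalonate pathway, had 337, 843 and 1557 CPM in TruSeq and 58.9, 91.8 and 343 CPM in the 14 SMARTer libraries. MVK, DHCR7 and FDPS, further steps of the pathway, differed by -2.63, -2.39 and -2.33. SREBF2, the transcription factor that drives these genes, differed by -0.44. ACACA, the acetyl-CoA carboxylase, had a log2 difference of 0.31 that did not pass the test (adjusted p = 0.067). The median exon length of the list was 3288 bases. Over all tested genes of 3001 to 4000 bases the median difference was 0.15, and whether the list differs from other genes of its length was not tested.

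Plasma proteins showed a mixed picture. Together they took 20.6 to 28.1% of counts in TruSeq and 15.6 to 22.2% in the 14 SMARTer libraries, with 3.22% and 0.740% in libraries 6 and 12. Of 42 genes, 23 were higher in TruSeq and 4 higher in SMARTer, and without the 2 libraries the counts were 27 and 8. ALB had 32916, 62070.1 and 74552 CPM in TruSeq against 25028, 29439 and 32421 CPM, and TTR, the thyroxine carrier transthyretin, had 3069, 5304 and 6537 CPM against 734, 1069 and 1411 CPM. In the opposite direction APOB, the large protein of low density lipoprotein, differed by 1.08. C3, the central complement protein, differed by 0.02 ± 0.29 (adjusted p = 0.96) and by 0.27 ± 0.07 without the 2 libraries. APOA1 turned with library 6: its difference was 1.58 with all libraries and -0.42 without libraries 6 and 12.

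Enzymes of drug and alcohol breakdown were mostly higher in TruSeq, with 28 of 40 in that direction and 2 in the other (median -0.87). CYP2E1, the ethanol-inducible cytochrome P450, had 1763, 4292 and 6201 CPM in TruSeq and 65.9, 977 and 1993 CPM in the 14 SMARTer libraries. Urea cycle and amino acid breakdown genes gave 14 higher in TruSeq and 5 higher in SMARTer of 37. Fatty acid oxidation gave 16 and 4 of 28, gluconeogenesis 12 and 2 of 24, and bile acid synthesis and transport 9 and 5 of 22. Without libraries 6 and 12 these counts were 17 and 10 for the urea cycle and amino acid list, 17 and 8 for fatty acid oxidation, 13 and 7 for gluconeogenesis and 12 and 5 for bile acids. Over all genes tested, 35.5% were higher in TruSeq, and 42% without the 2 libraries.

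Markers of Kupffer cells and macrophages were lower in SMARTer. Their summed level was 2647 to 4016 CPM in TruSeq and 772 to 1873 CPM in the 14 SMARTer libraries, and 13 of 16 genes were higher in TruSeq. C1QA, a chain of the complement component C1q, had 509, 651 and 835 CPM against 62.5, 109.9 and 184 CPM, without overlap. MRC1, the mannose receptor, went the other way, with 53.1, 78.0 and 93.2 CPM in TruSeq and 106, 158 and 221 CPM in SMARTer. MHC genes and their helpers gave 13 of 16 higher in TruSeq and 0 higher in SMARTer, and 15 and 0 without libraries 6 and 12. B2M, the light chain of MHC class I, had 287, 375 and 574 CPM against 38.4, 49.1 and 70.8 CPM.

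Blood cell markers depended on libraries 6 and 12. Of 9 neutrophil genes, 3 were higher in SMARTer and 2 in TruSeq with all libraries, while 8 were higher in TruSeq and 0 in SMARTer without the 2. The median moved from 1.15 to -1.95. T and NK cell markers went from 6 to 18 of 18 higher in TruSeq, and B and plasma cell markers from 0 to 11 of 13. Bile duct markers gave 6 higher in SMARTer and 4 in TruSeq with all libraries, and 4 and 7 without the 2. Endothelial markers had a median of -0.14, with 1 of 14 higher in SMARTer and 4 in TruSeq, and 5 and 4 without the 2, and stellate cell markers had a median of 0.23. Erythroid markers passed the filter in 3 of 9 genes, and adipocyte and muscle markers in 3 of 12.

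Most replication-dependent histone genes were higher in SMARTer, and most polyadenylated variants were higher in TruSeq. Whether the kind of message accounts for this was not tested. The 29 replication-dependent histone genes, whose messages end in a stem-loop in place of a poly(A) tail, took 0.00165 to 0.00347% of counts in TruSeq and 0.0216 to 0.0365% in the 14 SMARTer libraries. Of the 22 that passed the filter, 20 were higher in SMARTer and 0 in TruSeq, and 1 was higher in TruSeq without the 2 libraries. HIST1H2BD and HIST1H1E did not pass the test with all libraries, with log2 differences of 0.01 and 0.003. HIST1H2BD and HIST1H2BB had the highest TruSeq means of the list, at 7.64 and 6.04 CPM. H1-2, a linker histone, had 0.414, 0.933 and 1.62 CPM in TruSeq and 49.8, 80.9 and 102 CPM in SMARTer, and HIST1H2AC, a core histone, had 0.557, 0.879 and 2.63 CPM against 23.1, 29.6 and 39.4 CPM. The polyadenylated variants went the other way, with 5 of 7 higher in TruSeq and 1 higher in SMARTer. H2AFZ, the variant H2A.Z, had 25.3, 35.9 and 48.9 CPM against 6.73, 10.8 and 12.2 CPM, and H1-10 was the one that was higher in SMARTer, by 1.70. Near-identical histone copies make single gene values uncertain.

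Giant genes, with a large summed exon length, were mostly higher in SMARTer. Of 31 tested, 28 were higher in SMARTer and 2 in TruSeq (28 and 1 without libraries 6 and 12), with a median of 1.92. UTRN, which encodes the cytoskeletal protein utrophin, had 33.1, 40.6 and 57.8 CPM in TruSeq and 384, 465 and 568 CPM in the 14 SMARTer libraries. LRP1, a scavenger receptor of hepatocytes, had 654, 787 and 935 CPM against 2003, 2399 and 2666 CPM. SYNE1, which links the nucleus to the cytoskeleton, was higher in TruSeq, by -0.69 on the SMARTer minus TruSeq scale.

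PRLR at chr20:38971752-39100563 (ARS-UCD1.2), the gene whose SLICK allele the animals carried in different numbers, had 31.9, 58.7 and 80.5 CPM at the lowest, median and highest of the TruSeq libraries and 304, 399 and 639 CPM in the 14 SMARTer libraries. Libraries 6 and 12 had 6.996 and 8.87 CPM. Every one of the 14 lay above every TruSeq library, while both of the others lay below them. The log2 difference was 2.60 ± 0.33 (adjusted p = 9.0e-09) and 2.85 ± 0.12 without the 2 libraries. The prolactin receptor passes its signal to JAK2 and STAT5, and growth hormone uses the same kinase through GHR and raises IGF1. JAK2 differed by 2.30 and IGF1, the insulin-like growth factor, by 1.95. GHR had 87.8, 185 and 230.2 CPM against 196, 244 and 294 CPM and did not pass the test with all libraries (adjusted p = 0.40), with a difference of 0.50 (adjusted p = 1.3e-05) without the 2. STAT5A was higher in TruSeq, by -0.82, and STAT5B did not pass the test, at -0.17. SOCS2, a feedback inhibitor of the pathway, had 13.9, 37.8 and 89.8 CPM against 32.2, 107 and 195 CPM. Of the 16 genes of the list, 7 were higher in SMARTer and 2 in TruSeq, and 11 and 2 without libraries 6 and 12. Over all genes tested, 40.1% and 41.4% were higher in SMARTer. Since the experiments hold different numbers of SLICK copies, kit and genotype cannot be told apart in these values.

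Of 17 clock genes, 8 were higher in SMARTer, beside 40.1% of all genes tested, and 2 were higher in TruSeq. Whether the clock genes differ from other genes in this was not tested. CLOCK, the core activator, had 1.89, 2.84 and 4.07 CPM in TruSeq and 15.6, 20.2 and 26.3 CPM in the 14 SMARTer libraries, and PER2, one of its repressors, had 5.13, 11.5 and 21.3 CPM against 15.4, 41.5 and 73.8 CPM. ARNTL, the partner of CLOCK, had a difference of -0.17 that did not pass the test. The sources used here do not give the hour of sampling. Interferon-stimulated genes gave 7 higher in SMARTer and 14 in TruSeq of 40, immediate early genes 8 and 10 of 31, and heat shock genes 9 and 16 of 30. Acute phase proteins gave 2 and 5 of 25, and 18 did not pass the test. Without libraries 6 and 12 the counts were 6 and 20 for interferon-stimulated, 7 and 17 for immediate early, 10 and 13 for heat shock and 3 and 7 for acute phase genes. Beside these, 40.1% of all genes tested were higher in SMARTer and 35.5% in TruSeq, and 41.4% and 42% without the 2 libraries.

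The difference between experiments followed the exon length of the gene. Among genes with a mean of at least 5 CPM in both experiments, the median log2 difference was -0.88 for 524 genes of 301 to 1000 bases, -0.57 for 2212 genes of 1001 to 2000 bases, 0.04 for 1689 genes of 3001 to 4000 bases and 1.42 for 97 genes over 10000 bases. Of those 97, 87 were higher in SMARTer, against 66 of the 524. From 2 exons upward the median rose with the number of exons as well, from -0.55 at 2 to 5 exons to 1.00 above 40 exons. The 148 genes with 1 exon had a median of -0.13, above that of 2 to 5 exons. Across these 9181 genes, which are not independent replicates, the Spearman correlation of the difference with exon length was 0.43, and with the number of exons 0.37. Genes of at most 300 bases stood outside this order when all tested genes were taken, with a median of 2.95 over 833 genes. With at least 5 CPM in both experiments only 22 such genes remained, with a median of -0.61. Without libraries 6 and 12 the median of each of the 8 length bins at that level kept its sign.

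**Figure D4:**
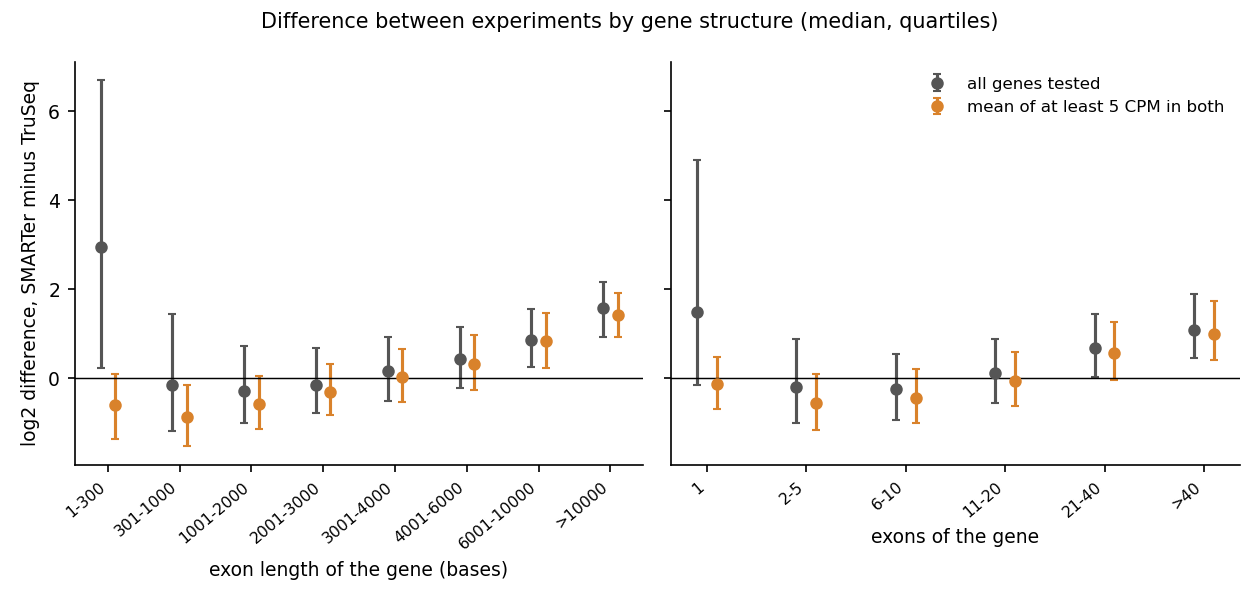
Median log2 difference, SMARTer minus TruSeq (vertical axis, bars from the lower to the upper quartile), by exon length in bases (left) and by number of exons (right), for all genes tested (grey) and for genes with a mean of at least 5 CPM in both experiments (orange). From 301 bases upward the orange medians rise from -0.88 to 1.42, and the shortest genes stand high in grey alone, at 2.95.

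The spread between animals rested heavily on libraries 6 and 12. Among genes with a mean of at least 5 CPM, the median SD of log2 CPM was 0.186 in TruSeq, 0.410 in the 16 SMARTer libraries and 0.193 in the 14. An SD of at least 1 was found in 92, 1985 and 123 genes. The biological coefficient of variation fitted by edgeR was 25.9%, 65.1% and 33.3%. Across 8974 genes at this level in both, the SDs of TruSeq and the 14 SMARTer libraries had a Spearman correlation of 0.553, as a description over genes.

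The genes that varied most between animals overlapped in part. Of the 100 with the largest SD, 8 were shared between TruSeq and all SMARTer libraries (8% of each list), and 28 between TruSeq and the 14 (28% of each). With all 16, the SMARTer list held 17 plasma protein genes, among them ALB with an SD of 4.03, and 0 interferon-stimulated genes. With the 14, it held 6 interferon-stimulated genes and 1 plasma protein gene, and the TruSeq list held 9 and 1. In all, 40 interferon-stimulated and 42 plasma protein genes were tested. Each list of 100 was drawn from all genes at that level, 9867 in TruSeq, 10489 in the 16 SMARTer libraries and 9986 in the 14. All 6 interferon-stimulated genes of the 14-library list were among the 28 shared genes. Leaving out the library farthest from a gene's median lowered its SD by over 1.5 times in 7 genes of the TruSeq list and in 8 genes of the 14-library list.

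The median SD of the interferon-stimulated list was 0.76 in TruSeq and 0.60 in the 14 SMARTer libraries. Over all genes taken the same way it was 0.20 and 0.21. The members named here were picked for a large SD in both experiments, so their own spread is no separate result. ISG15, the ubiquitin-like modifier, had 13.3, 31.0 and 524 CPM at the lowest, median and highest of TruSeq and 2.41, 13.6 and 58.6 CPM in the 14 SMARTer libraries. IFI6, an interferon-induced membrane protein, had 37.5, 74.96 and 475 CPM and 48.5, 185 and 739.6 CPM. Both spanned more than a 10-fold range of CPM in each experiment. MX2, HERC6, IFI27 and OAS1X were the other shared members of that list, with SDs of 1.26, 1.29, 1.39 and 1.14 in TruSeq and 1.15, 1.14, 1.68 and 1.39 in SMARTer.

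Of the 25 genes of the acute phase list, which holds metallothioneins, 4 were among the 28 shared genes. Shared genes made up 28 of the 8974 genes with at least 5 CPM in both. The median SD of the list was 0.44 in TruSeq and 0.52 in the 14 SMARTer libraries. Over all genes taken the same way it was 0.20 and 0.21. Members such as CRP, with SDs of 0.20 and 0.21, varied no more than that. HP, which encodes haptoglobin, had 134, 590.2 and 12125 CPM in TruSeq and 42.4, 424 and 4383 CPM in SMARTer. MT1A, a metallothionein that binds zinc and copper, had 3.10, 25.7 and 230.0 CPM against 5.17, 47.1 and 139 CPM, and SAA3, a serum amyloid A protein, had SDs of 1.05 and 1.29. GPX3, the plasma glutathione peroxidase, had 5.22, 11.1 and 1262 CPM in TruSeq and 42.5, 146 and 935 CPM in SMARTer. Its SD in TruSeq was 1.71, and 0.75 without library 12. KEL, the Kell blood group protease, and ECEL1, a related neuropeptide-processing enzyme, varied most among named shared genes in SMARTer, with SDs of 2.33 and 3.53.

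Some genes were among the most variable of one experiment and not of the other, a difference that was not tested. SYT4, a synaptotagmin of vesicle release, had 10.6, 25.01 and 32.4 CPM in TruSeq and 0, 26.9 and 33.1 CPM in the 14 SMARTer libraries, with SDs of 0.41 and 2.68. Its SMARTer spread rested on library 4 at 0 CPM, without which the SD was 0.52. SULT1E1, the oestrogen sulfotransferase, had SDs of 0.72 and 2.47, and FADS2 of 0.66 and 1.64. In the other direction GSTO1, a glutathione transferase, had SDs of 1.76 and 0.56, and of 0.80 in TruSeq without library 12. The list of the 14 also held 29 short structural RNAs and 38 genes under 300 bases, of which the TruSeq list held 0. PRLR had SDs of 0.35 in TruSeq and 0.31 in the 14, above the medians of 0.186 and 0.193 and below the 90th percentiles of 0.381 and 0.383, and an SD of 2.05 over all 16 SMARTer libraries.

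**Figure D5:**
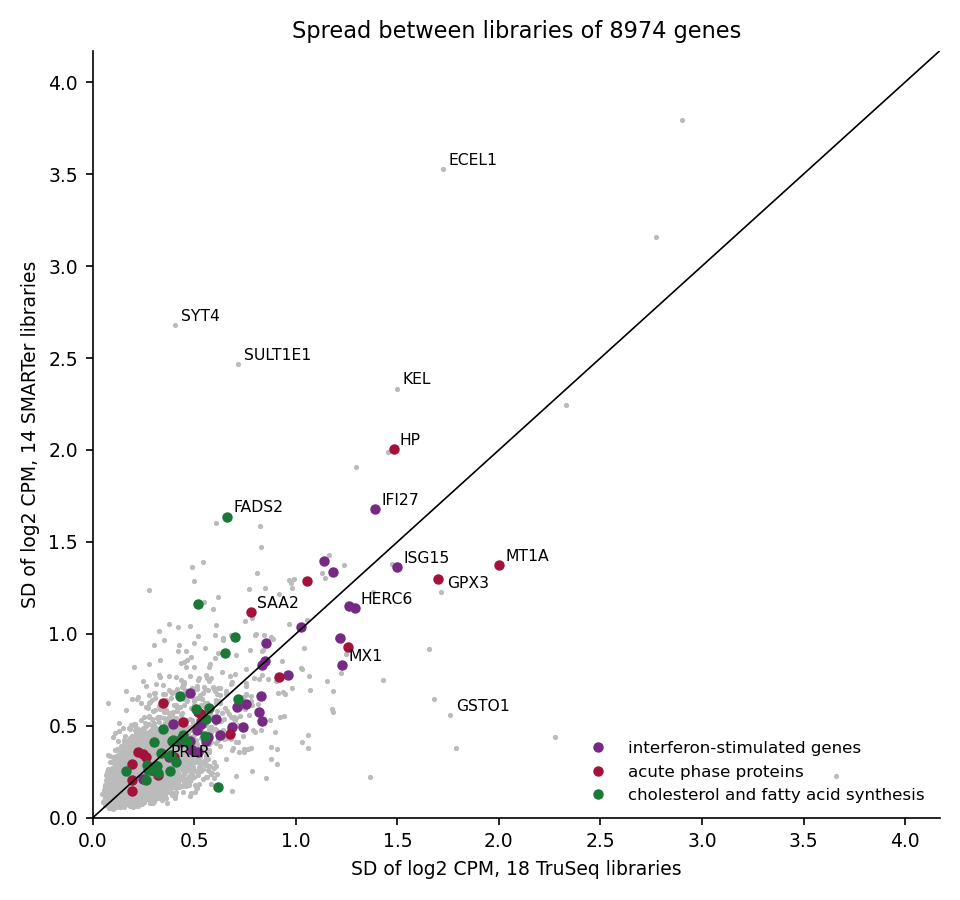
SD of log2 CPM between the 18 TruSeq libraries (horizontal axis) and between 14 SMARTer libraries without 6 and 12 (vertical axis), 1 point per gene for 8974 genes with a mean of at least 5 CPM in both, with 3 gene lists coloured, selected genes named and the line of equal spread drawn. HP, IFI27 and ISG15 lie high in both, SULT1E1 and, through 1 library, SYT4 lie high in SMARTer, and GSTO1, through 1 library, in TruSeq.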

How the data were processed

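RNA from liver was column-purified and made into libraries with a TruSeq stranded mRNA or a SMARTer total RNA preparation, per the labels' protocols. Tools listed in the submitters' processing notes are edgeR, Subread, featureCounts and HISAT2 2.1.0, with ARS-UCD1.2 as the build. The SMARTer counts were deposited as whole read counts per gene; per the file headers they were made with featureCounts 1.6.2 on Ensembl release 100 models with a minimum mapping quality of 10 and strand setting 2. The TruSeq counts were deposited by the authors without such a header, and the sources used here do not say how they were made. Exon length and exon number came from other deposited values, per the file headers. Both tables were joined on the gene identifier. The 36 per-sample columns of the other deposited tables were not used.

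Genes were tested with edgeR 4.0.16 (TMM, filterByExpr, quasi-likelihood test, Benjamini-Hochberg, threshold 0.05) in R 4.3.3, with the experiment as the only term. On simulated data with 200 genes changed 2-fold among 15954, 100% were recovered and 4.76% of the calls were false. In the real data 12521 of 16562 genes passed the test, a far larger share. The simulation therefore does not give the recovery or the share of false calls in these data. Nor does it check TMM scaling where most genes differ. SD of log2 CPM used a prior count of 2. Shares and detected genes were compared with two-sided permutation tests (100000 resamples, scipy 1.17.1 in Python 3.11.15), adjusted over the shares tested. A library stands apart if its median rank correlation with its experiment is over 5 median absolute deviations below the experiment's median. Named genes are PRLR, the 12 largest non-overlapping differences each way at 10 CPM or more, the 15 most abundant and most variable genes per experiment, and from each list the 4 most abundant members and the largest difference each way; others named were chosen after their values were seen. Alternatives were other scalings, filters, DESeq2 1.42.0, a fold threshold (glmTreat), thinning to the smallest library, and libraries left out. The members and gene lists were chosen with earlier results of these data known. No set test was made. A list of 13 nuclear non-coding RNAs had 0 genes in the tables.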

Additional observations from a re-analysis of the deposited data

How the results depend on the processing

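No paired analysis was possible because no column could be tied to a labelled sample and the experiments used different animals. Of 2882 values of 270 named genes recomputed under the alternatives, 2641 kept their direction and their side of the threshold, 88 passed it newly, 104 lost it and 49 turned. Against a difference of 1 log2 unit (glmTreat), 5130 genes passed, 3301 higher in SMARTer and 1829 higher in TruSeq. Without a filter on low counts, 10406 genes were higher in SMARTer, 8066 of them by at least 2-fold, and the share of 2-fold calls in that direction went from 60.1% to 71.0%. With counts of nuclear chromosomes as denominator, the share of the 100 most abundant genes differed by -0.954 percentage points (permutation p = 0.45), and at 10 CPM the number of detected genes by -19.4. Of the 100 most variable genes, 28 were shared without libraries 6 and 12 (28 also with a prior count of 0.5, 27 by dispersion, 20 by median absolute deviation and 52 at 20 CPM or more in both), 21 by median absolute deviation with all libraries, and 25 without all 6 libraries that stand apart. Of the 200 most variable, 16 were shared with all libraries and 61 without 6 and 12. The cause of these changes was not tested.

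Named genes turned as follows, on the log2 scale of SMARTer minus TruSeq, given without the 6 libraries that stand apart, then without libraries 6 and 12 only, then with DESeq2. ISG12(B) came to -3.12, -4.45 and -4.31, APOA1 to -0.32, -0.42 and -0.48, and SLC51A to -1.27, -2.0 and -1.46. BOLA-DOB came to -1.62, -1.64 and -1.26, EPCAM to -0.041, -0.16 and -0.24, JCHAIN to -0.62, -0.73 and -0.32, and MS4A1 to -1.58, -1.52 and -1.42. IRF4 came to -0.83, -0.91 and -0.80, CSF3R to -1.42, -1.55 and -1.51, S100A12 to -1.76, -2.12 and -1.74, and S100A9 to -2.18, -2.37 and -2.28. HBB came to -2.11, -2.06 and -2.01, and CIDEC to -1.02, -1.05 and -1.08. With both kinds of omission but not with DESeq2, KLF6 turned to -0.21 and -0.26, KLF4 to -0.29 and -0.41, and GZMB to -1.89 and -1.77. FGA turned to 0.28 without the 6 libraries, PTX3 to -0.15 without libraries 6 and 12, and M-SAA3.2 to 2.13 without the 6 libraries and 2.47 with DESeq2. After thinning to 63795299 counts the difference in detected genes was 518. At this depth 1 CPM is far above a single count, so the thinning says little about depth.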

Other observations

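Within the SMARTer experiment the short RNA classes did not vary as one block, a pattern chosen after the values were seen. Over the 14 libraries without 6 and 12, the share of 5S_rRNA ran from 0.141 to 0.799% of counts. Of 11 relations computed with it, 6 passed a permutation test with 100000 resamples after Benjamini-Hochberg adjustment. Since the pattern was chosen on these same libraries, the p-values describe it and are no independent support. Its share followed that of the 22 mitochondrial genes under 100 bases with Pearson's r = 0.96 and Spearman's rho = 0.98 (adjusted permutation p = 5.5e-05 and 7.3e-05), and r was 0.96 without the 2 libraries farthest from the median. It followed 5_8S_rRNA (r = 0.98, rho = 0.91), snoRNAs (r = 0.96, rho = 0.88), Y_RNA and Vault (r = 0.95, rho = 0.96), spliceosomal U RNAs (r = 0.92, rho = 0.85) and the number of detected genes (r = 0.89, rho = 0.82), each with an adjusted permutation p of 0.0011 or less. Without the 2 farthest libraries these 5 had r = 0.96, 0.94, 0.89, 0.85 and 0.84. Genes of the short RNA classes that reach 1 CPM are themselves counted among the detected genes, so that relation is partly one of a part with its whole.

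The other 5 relations did not pass: Metazoa_SRP (r = -0.01, rho = -0.10), 7SK (r = 0.33, rho = 0.38), the 2 long mitochondrial genes (r = 0.02, rho = -0.10), bta-mir (r = 0.52, rho = 0.50) and the total count of the library (r = -0.42, rho = -0.38), with adjusted permutation p from 0.10 to 0.98. With all 16 libraries, spliceosomal U RNAs had r = 0.26 and rho = 0.62 (adjusted permutation p = 0.51 and 0.021) and detected genes had r = 0.15 and rho = 0.65 (adjusted permutation p = 0.68 and 0.018), so that r did not pass and rho did. The last letter of the SMARTer column headings is E in 1 library (library 6), F in 5 (library 12 among them) and G in 10, and the sources used here do not give its meaning.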
